A study of Mus musculus with 4 samples.

Results

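The G1 cyclins and their kinases are the genes that carry a cell from growth factor signals to the start of DNA synthesis. The set described here holds 10 genes, chosen by name as Ccnd1, Ccnd2, Ccnd3, Ccne1, Ccne2, Cdk2, Cdk4, Cdk6, Cdc25a and E2f1, out of 34844 gene names on the array. They were found as the non-control probes that carry exactly one of these names, which gave 14 of 55681 probes. Cdk4 had 3 probes, Ccnd3 and Ccne1 had a pair each, and the other 7 genes had 1 probe.

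The study measured RNA on 4 one-colour Agilent arrays, with 1 array for each of 4 groups: cKO LT-HSC, WT LT-HSC, cKO MPP and WT MPP. Donors were 10-week-old male C57BL/6J mice carrying the Ly5.2 allele, either with a conditional knockout labelled p38 cKO (p38 alpha in the study's title) or wild type (WT). Marrow LSK cells (lineage-negative, Sca-1-positive, Kit-positive) were sorted into long-term haematopoietic stem cells (LT-HSC, lacking CD34 and Flt3) and multipotent progenitors (MPP, carrying both), stained with the dye CFSE and given to Ly5.1 recipients irradiated with 9.5 Gy. All 4 groups therefore share transplantation, the irradiated host and a second sort of CFSE-positive marrow cells 16 h later, and no untransplanted cells were among the samples. The Cre line, the exons deleted and how many mice went into an array were not given in the sources used here.

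In the textbook order of events, growth signals raise the D-type cyclins, which bind and switch on the kinases Cdk4 and Cdk6. These phosphorylate the retinoblastoma protein and so release the transcription factor E2f1 and its relatives, which drive genes of S phase, among them the E-type cyclins. Cyclin E then binds Cdk2, and the phosphatase Cdc25a removes inhibitory phosphates from Cdk2 so that replication can begin. Adult stem cells of the marrow are mostly quiescent, and in human stem cells the level of Cdk6 is known to set how fast they leave that state.

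Of the 14 probes, 3 lie inside the coding part of their transcripts. Their sequences are shown because Ccnd2 rests on its probe alone, because the Cdk4 probe repeats the result of its brightest probe from another stretch of the transcript, and because the Ccne1 probe gave other values than the second Ccne1 probe. All are 60 bases long, are written 5′ to 3′ as the transcript reads, and come from the array files, with mm9 positions.
Ccnd2 (chr6:127098696-127098755, minus strand, from base 609 of the transcript): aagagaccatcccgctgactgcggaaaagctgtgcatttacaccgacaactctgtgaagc
Cdk4 (chr10:126503162-126503221, plus strand, from base 861): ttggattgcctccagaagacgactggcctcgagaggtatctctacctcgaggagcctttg
Ccne1 (chr7:38885574-38885633, minus strand, from base 741): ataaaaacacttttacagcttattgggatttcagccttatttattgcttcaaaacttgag
The share of G and C bases was 51.7% in the Ccnd2 probe, 55% in the Cdk4 probe and 30% in the Ccne1 probe. The other probes lie further along their transcripts, from base 1181 in Cdk4 to base 3563 in Cdc25a, and are named below by that base where a gene has several. No probes of 1 gene overlap. The brighter Ccne1 probe, at base 1874, is mapped in the file to chr7:38882937-38882960, which covers 24 of its 60 bases.

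Promoters were read from RefSeq (GRCm38.p6), which held 7 of the 10 genes in 8 windows (Ccnd3 has more than 1 start), without Ccnd1, Ccnd2 and Ccne2. The 250 bases before the start were searched on both strands for 4 spellings of the E2F site, TTTGGCGC, TTTCCCGC, TTTGCCGC and TTTCGCGC. The E2f1 window reads as coding sequence of E2f1 itself and not as sequence upstream of the gene. It stays in the counts here but does not describe the E2f1 promoter. Cdc25a and Cdk2 held 1 match each, 2 of the 7 genes, while 1.86% of all 32851 promoter windows held at least 1. They are shown with the match in capitals because both genes stood lower in LT-HSC than in MPP, as described below. Cdk4 and Cdk6 stood lower there too, and their windows held no match.
Cdc25a (chr9:109875329-109875578, plus strand, match beginning 67 bases before the start): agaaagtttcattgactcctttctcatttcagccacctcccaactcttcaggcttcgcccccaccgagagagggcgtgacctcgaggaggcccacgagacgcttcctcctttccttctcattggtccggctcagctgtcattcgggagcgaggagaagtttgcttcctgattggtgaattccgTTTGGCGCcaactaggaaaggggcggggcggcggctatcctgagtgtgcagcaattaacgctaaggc
Cdk2 (chr10:128705052-128705301, minus strand, match TTTCCCGC on the opposite strand, beginning 140 bases before the start): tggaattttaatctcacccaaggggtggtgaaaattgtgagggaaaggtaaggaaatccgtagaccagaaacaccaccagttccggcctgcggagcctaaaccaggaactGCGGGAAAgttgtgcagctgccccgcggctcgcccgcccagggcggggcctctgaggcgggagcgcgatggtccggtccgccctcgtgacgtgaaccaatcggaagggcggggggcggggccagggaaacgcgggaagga
The GC box GGGCGG, on either strand, was in the windows of 6 of the 7 genes, all but Cdk6, and in 32.7% of all windows. The coding window of E2f1 is among those 6. These matches describe letters and say nothing of binding, and no motif was tested against the expression values.

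Levels below are the scanner's processed signal divided by the 75th percentile of the non-control probes of the same array, so that a level of 1 equals that percentile. That percentile was 202 in cKO LT-HSC, 214 in WT LT-HSC, 175 in cKO MPP and 178 in WT MPP. Differences are log2 differences of such levels, and ± gives the error that the scanner software assigns to a difference, between 0.20 and 0.24 for the member probes measured on both arrays. That error covers the reading of spots and not mice, sorts or amplification. With 1 array a group there is no replicate, so differences between arrays carry no p-value and describe these arrays. A gene with several probes is counted by its brightest one, and "well above background" is the scanner software's flag. Of the 14 probes, 12 carried that flag on all 4 arrays, Ccne1 at base 741 on 3, and Ccne2 on none, so 9 of the 10 genes could be counted in every comparison.

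On each array 62.5% to 70.5% of spots carried the flag, 0 spots were saturated, and all arrays came from 1 slide and 1 scan. Of 8 stem cell markers, 7 were well above background in cKO LT-HSC, all 8 in WT LT-HSC and 6 on each MPP array. Slamf1 and Hoxb5 were not on either MPP array, and Hoxb5 not on the cKO LT-HSC array. The 6 markers measured on both arrays had a median LT-HSC minus MPP difference of 0.04 in cKO and 0.01 in WT cells. They ranged from -1.75 (Mecom) to 2.11 (Ly6a) in cKO and from -1.18 (Procr) to 1.96 (Ly6a) in WT cells. The summed level of all 8 was 44.1 in cKO and 45.6 in WT LT-HSC, against 28.9 in cKO and 36.9 in WT MPP. Cd34, used in the sort, was lower in LT-HSC than in MPP by -1.02 ± 0.20 in cKO and -2.99 ± 0.20 in WT cells. Flt3, also used in the sort, differed by -1.16 ± 0.21 in cKO and -1.80 ± 0.21 in WT cells at its brightest probe, while its other probes lay above 0 in both. Genes of B cells, of 8 measured, were all well above background on both LT-HSC arrays, against 4 on the cKO MPP array and 5 on the WT MPP array. Their summed level was 24.2 in cKO LT-HSC, 60.6 in WT LT-HSC, 1.81 in cKO MPP and 2.27 in WT MPP. The summed level of 8 macrophage genes was 34.5 in cKO and 36.5 in WT LT-HSC, against 76.1 in cKO and 42.8 in WT MPP. Such sums follow the brightest genes. The median LT-HSC minus MPP difference of the 8 was -1.85 in cKO and -0.93 in WT cells, with bright Csf1r at 0.08 and 0.22. The summed level of 8 stromal and endothelial genes was 10.3 in cKO LT-HSC and 39.7 in WT LT-HSC, against 10.5 and 10.8 on the cKO and WT MPP arrays. In WT cells their LT-HSC minus MPP differences ran from -1.77 (Pecam1) to 5.49 (Cxcl12, the brightest). Erythroid genes summed to 39.5 in cKO and 78.4 in WT LT-HSC, against 27.1 in cKO and 26.1 in WT MPP, and neutrophil and granule genes to 251, 207, 193 and 153 in that order. The median LT-HSC minus MPP difference of the neutrophil and granule genes was 1.03 in cKO and 1.33 in WT cells. S100a9 was the brightest of them on both LT-HSC arrays. Mpo (-1.53 in cKO and -2.17 in WT cells) and Elane (-0.97 and -0.27) went the other way. The part of other cells in the results below was not tested, and in such bulk RNA fewer cells of a type and less RNA per cell cannot be told apart. Mapk14, which encodes p38 alpha, gave a cKO minus WT value of -0.58 ± 0.20 in LT-HSC at its brighter probe and 0.13 ± 0.20 in MPP, with 0.13 and -0.03 at the other. Since the deleted exons are not given, neither probe checks the genotype.

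**Figure D1:**
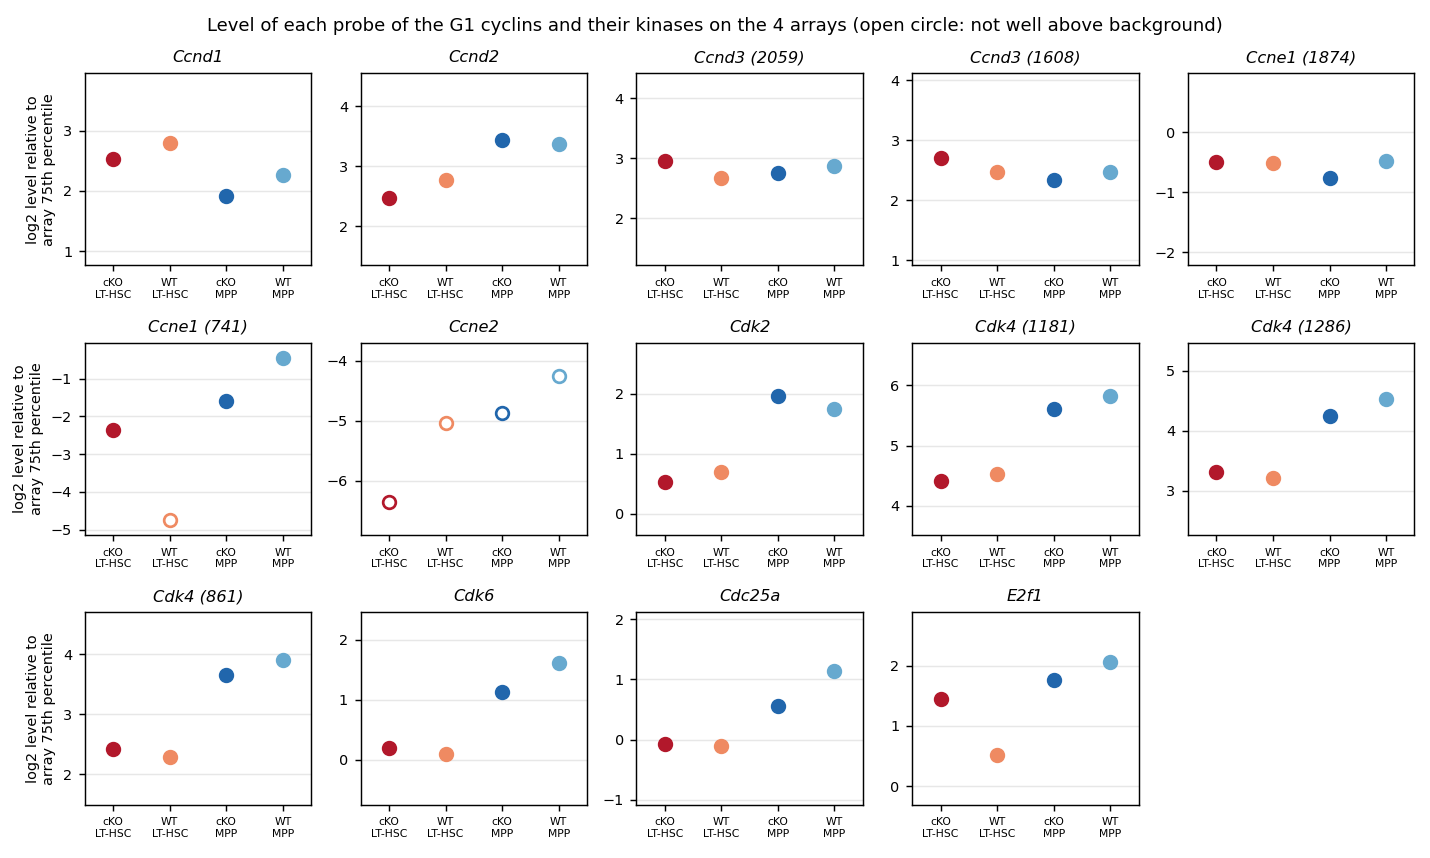
Each panel is 1 probe, with the number of its first transcript base in brackets where a gene has several. The vertical axis is the log2 level relative to the array's 75th percentile and spans the same width in every panel but that of Ccne1 at base 741, the 4 columns are the arrays (cKO LT-HSC, WT LT-HSC, cKO MPP, WT MPP), and open circles are probes not well above background. Ccnd2, Cdk2, the 3 Cdk4 probes, Cdk6, Cdc25a, E2f1 and Ccne1 at base 741 sit higher on both MPP arrays than on both LT-HSC arrays. Ccnd1 sits lower on both MPP arrays, and E2f1 is lowest on the WT LT-HSC array.

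The first question was how the set differed between stem cells and progenitors after transplantation. In both genotypes the kinases were lower in LT-HSC than in MPP, while cyclin D1 was higher. Cdk4 and Cdk2 were lower by 2-fold or more in cKO and in WT cells, and Cdk6, Cdc25a and E2f1 reached 2-fold in WT cells and not in cKO cells, a contrast for which 4 arrays leave no test. No member was higher by 2-fold in either genotype.

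By count, 2 of the 9 measured genes (Cdk2 and Cdk4) stood at least 2-fold lower in cKO LT-HSC than in cKO MPP, where 6.44% of 23386 genes were. Between the WT arrays 5 of 9 were (Cdk2, Cdk4, Cdk6, Cdc25a and E2f1), where 18.1% of 22403 genes were. Of the 9, 0 were higher by 2-fold in either genotype, where 6.67% of all genes were in cKO and 9.15% in WT cells. The members' median difference was -0.64 in cKO and -1.05 in WT cells, and the medians of all genes were -0.09 and -0.20. These medians describe the arrays, and the 2 comparisons share no array. Of 21541 genes measured on all 4 arrays, 697 were lower by 2-fold in both genotypes (3.24%), among them Cdk2 and Cdk4. Those 697 are 50.5% of the 1380 genes lower in cKO and 17.5% of the 3977 lower in WT cells. All 5 members that were lower by 2-fold in WT cells lay below 0 in cKO cells too, as did 83.1% of the 3977 genes.

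The D-type cyclins did not go together. Ccnd1 encodes cyclin D1 and was measured at chr7:152116202-152116261 (mm9). Its level was 5.79 in cKO LT-HSC, 6.99 in WT LT-HSC, 3.77 in cKO MPP and 4.80 in WT MPP, from processed signals of 1169, 1494, 659 and 857. Both LT-HSC arrays lay above both MPP arrays, and each step in the order of the 4 levels was larger than the scanner error. The LT-HSC minus MPP difference was 0.62 ± 0.20 in cKO cells (1.54-fold) and 0.54 ± 0.20 in WT cells (1.46-fold), at percentiles 87.3 and 82.7 of all genes.

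Ccnd2 encodes cyclin D2 and went the other way. Its level was 5.53 in cKO LT-HSC, 6.84 in WT LT-HSC, 10.8 in cKO MPP and 10.4 in WT MPP, from signals of 1117, 1462, 1891 and 1848. The MPP arrays did not differ beyond the error, and both lay above both LT-HSC arrays. The LT-HSC minus MPP difference was -0.97 ± 0.20 in cKO cells (1.96-fold lower) and -0.60 ± 0.20 in WT cells (1.51-fold lower). The WT value was -0.27 with quantile normalization and -0.32 with normexp background correction before it.

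Ccnd3, which encodes cyclin D3, was nearly level. Its brighter probe (chr17:47736579-47736638) had levels of 7.78, 6.39, 6.73 and 7.36 on the cKO LT-HSC, WT LT-HSC, cKO MPP and WT MPP arrays, from signals of 1572, 1365, 1177 and 1314. Its other probe (chr17:47736267-47736326) had 6.49, 5.54, 5.05 and 5.54 in the same order, from signals of 1311, 1184, 883 and 989. No neighbours in the order of the brighter probe's levels differed beyond the error. The LT-HSC minus MPP differences were 0.21 ± 0.20 and 0.36 ± 0.20 at the 2 probes in cKO cells, and -0.21 ± 0.20 and -0.00 ± 0.20 in WT cells. The WT values changed sign under 2 other scalings at the first probe and under 5 at the second.

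A ratio of genes on the same array does not depend on how arrays are scaled to each other by a single factor. Relative to Ccnd2, Ccnd1 was 3.002-fold higher in LT-HSC than in MPP in cKO cells (1.59 ± 0.29 on the log2 scale) and 2.20-fold in WT cells (1.14 ± 0.29). Relative to Ccnd3 the shift of Ccnd1 was 0.41 ± 0.29 in cKO and 0.75 ± 0.29 in WT cells, and that of Ccnd2 was -1.18 ± 0.29 and -0.39 ± 0.29. A ratio of this kind shows unequal change and not which of its genes moved.

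The partners of the D-type cyclins were lower in LT-HSC at all their probes. Cdk4 had levels of 21.2 in cKO LT-HSC, 23.0 in WT LT-HSC, 48.9 in cKO MPP and 56.4 in WT MPP at its brightest probe (chr10:126504174-126504233). The signals behind them were 4277, 4923, 8549.8 and 10061. The LT-HSC arrays did not differ from each other beyond the error, and both lay below both MPP arrays. The difference was -1.21 ± 0.20 in cKO cells (2.31-fold lower) and -1.29 ± 0.20 in WT cells (2.45-fold lower), at percentiles 3.74 and 11.2 of all genes.

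The coding probe of Cdk4, printed above, had levels of 5.36 and 4.88 on the cKO and WT LT-HSC arrays, against 12.6 and 15.0 on the cKO and WT MPP arrays, from signals of 1083, 1044, 2200.3 and 2681. It was lower in LT-HSC by -1.23 ± 0.20 in cKO and -1.62 ± 0.20 in WT cells. The third probe (chr10:126504279-126504338) had 9.93 and 9.25 against 18.9 and 23.0 in the same order, from signals of 2005, 1977, 3314 and 4109, with differences of -0.93 ± 0.20 and -1.32 ± 0.20. The probes agreed in direction, but not in reaching 2-fold in cKO cells. At the brightest probe quantile normalization gave -0.89 in cKO and -0.75 in WT cells, both under 2-fold.

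Cdk6, the other kinase of the D-type cyclins, was measured at chr5:3522106-3522165. Its level was 1.15 in cKO and 1.07 in WT LT-HSC, against 2.19 in cKO and 3.07 in WT MPP, from signals of 232, 228, 383 and 548. The LT-HSC arrays were within error of each other and the MPP arrays were not. The LT-HSC minus MPP difference was -0.93 ± 0.21 in cKO cells (1.90-fold lower) and -1.52 ± 0.21 in WT cells (2.87-fold lower), at percentiles 7.95 and 7.61. Relative to Ccnd1 within the array, Cdk4 was lower in LT-HSC by -1.83 ± 0.29 in both genotypes, and Cdk6 by -1.55 ± 0.29 in cKO and -2.06 ± 0.29 in WT cells.

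**Figure D2:**
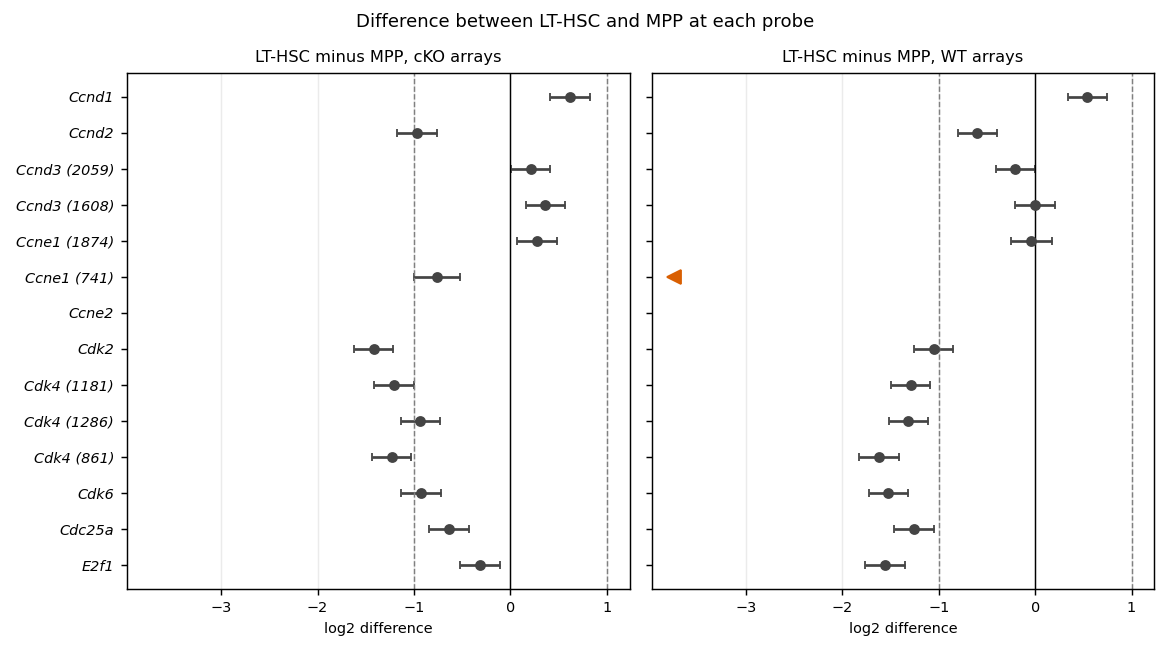
Points are log2 differences of LT-HSC minus MPP for each member probe, in cKO cells (left) and WT cells (right). Bars are the scanner software's error, the dashed lines mark 2-fold, the triangle is a bound for a probe not well above background on the WT LT-HSC array, and Ccne2 has no point. Ccnd1 lies right of 0 in both panels, all Cdk2, Cdk4 and Cdk6 probes lie left of it, and E2f1 lies at -0.31 in cKO and -1.56 in WT cells.

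Cdk2, the kinase that cyclin E binds, had levels of 1.45 in cKO and 1.62 in WT LT-HSC, against 3.89 in cKO and 3.36 in WT MPP (chr10:128135658-128135717). The signals were 294, 347, 680.0 and 600.3. Both LT-HSC arrays lay below both MPP arrays and were within error of each other. The difference was -1.42 ± 0.20 in cKO cells (2.67-fold lower, percentile 2.19) and -1.05 ± 0.20 in WT cells (2.07-fold lower, percentile 16.7). In WT cells 4 of 5 other scalings put it between -0.81 and -0.95, just under 2-fold.

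Ccne1, which encodes cyclin E1, gave no single answer. At the brighter probe, at base 1874, the levels were 0.711, 0.700, 0.587 and 0.720 on the cKO LT-HSC, WT LT-HSC, cKO MPP and WT MPP arrays, from signals of 144, 149.7, 103 and 128. The LT-HSC minus MPP difference there was 0.28 ± 0.21 in cKO cells and -0.04 ± 0.21 in WT cells, where the sign changed under 2 other scalings. At the coding probe, at base 741, the levels were 0.196, 0.0373, 0.333 and 0.734, from signals of 39.7, 7.97, 58.3 and 131, and the WT LT-HSC array was not well above background. There LT-HSC stood lower than MPP by -0.76 ± 0.24 in cKO cells and, by a bound, 13.4-fold lower in WT cells. The bound sets the WT MPP level against the lowest signal well above background on the WT LT-HSC array, 11.7. Probes without the flag can read above that signal, as Ccnh did at 12.4 on that array, so the bound is not a strict limit. With normexp correction, which adds an offset of 50 to dim and bright spots alike, the WT difference at this probe was -1.61 and the cKO one -0.39. Ccne2, which encodes cyclin E2, had signals of 2.49, 6.51, 6.00 and 9.34 and was not well above background on any array, so no difference is given for it (chr4:11131423-11131482).

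Cdc25a, the phosphatase that activates Cdk2, had levels of 0.950 in cKO and 0.926 in WT LT-HSC, against 1.48 in cKO and 2.21 in WT MPP (chr9:109796331-109796390). The signals were 192, 198, 258 and 395. As for Cdk6, the LT-HSC arrays were within error of each other and the WT MPP array was the highest. The difference was -0.64 ± 0.21 in cKO cells (1.55-fold lower) and -1.26 ± 0.21 in WT cells (2.39-fold lower), at percentiles 17.3 and 11.9.

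E2f1, the transcription factor released by the D-type cyclin kinases, had the widest range of the 9 genes counted, 1.56 on the log2 scale (chr2:154385798-154385857). Its level was 2.75 in cKO LT-HSC, 1.43 in WT LT-HSC, 3.42 in cKO MPP and 4.20 in WT MPP, from signals of 555, 305, 597 and 749.6. Every step in the order of levels was larger than the scanner error, and the largest separated the WT LT-HSC array from the other 3. LT-HSC stood lower than MPP by -0.31 ± 0.20 in cKO cells (percentile 34.7) and -1.56 ± 0.20 in WT cells (2.94-fold lower, percentile 7.18).

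The 3 probes whose pattern over the 4 arrays lay nearest to that of E2f1, among 30978 probes, were 2 probes of intergenic RNA regions at Euclidean distances of 0.0326 and 0.0374 (log2) and a probe of 2810422O20Rik at 0.0403. Within the set, the nearest profiles were those of Ccnd3 and Ccne1 (0.249), Cdk4 and Cdk6 (0.258), Cdk6 and Cdc25a (0.290) and Cdk2 and Cdk4 (0.295). Distances over 4 arrays are a description of these arrays.

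The second question was how the set differed between cKO and WT cells. In LT-HSC 8 of the 9 genes counted lay between -0.31 and 0.29, while E2f1 was 1.92-fold higher on the cKO array. In MPP 7 of the 9 lay below 0, led by Cdc25a and Cdk6, and none reached 1.5-fold, with Cdc25a just under it. The coding probe of Ccne1 differed by more than 2-fold in MPP and, by a bound that is not a strict limit, in LT-HSC, in opposite directions.

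Of the 9 genes, 0 stood higher and 0 lower at 2-fold in cKO than in WT LT-HSC, where 8.97% of 24131 genes were higher and 7.92% lower. In MPP 0 stood higher and 0 lower in cKO, where 1.76% of 22404 genes were higher and 1.89% lower. The members' median difference was 0.02 in LT-HSC, which turned negative under 3 other scalings, and -0.29 in MPP. The medians of all genes were 0.10 and -0.06, and the interquartile ranges of all genes 0.71 and 0.48.

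For E2f1 the cKO minus WT difference was 0.94 ± 0.20 in LT-HSC (percentile 90.1), against -0.30 ± 0.20 in MPP (percentile 23.2). The cKO LT-HSC array was the higher of its pair and the cKO MPP array the lower of its pair, under all 5 other scalings and sources as well. Among these 5, the authors' series table nearly repeats the main scaling. The genotype difference in LT-HSC minus that in MPP was 1.24 ± 0.29, a value for which 4 arrays leave no test. The E2f1 difference between genotypes in LT-HSC and that between populations in WT cells both use the WT LT-HSC array, so they are not separate observations. On the same pair of LT-HSC arrays the 3 MPP markers, Cd34, Flt3 and Cd48, summed to a level of 25.7 in cKO and 9.76 in WT cells, with a median difference of 1.01 and Cd34 at 1.70. The MPP arrays gave sums of 48.3 in cKO and 57.8 in WT cells, with all 3 below 0 (median -0.26). In LT-HSC the medians of the 8 B cell genes and of the 8 stromal and endothelial genes were -1.42 and -2.91. The part of these in the E2f1 difference was not tested. Relative to Ccnd1 within the array, E2f1 was 2.32-fold higher in cKO than in WT LT-HSC (1.21 ± 0.29) and nearly equal in MPP (0.05 ± 0.29).

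In MPP, Cdc25a was lower in cKO by -0.58 ± 0.21 (percentile 7.53) and Cdk6 by -0.49 ± 0.20 (percentile 10.9). In LT-HSC their differences were 0.04 ± 0.21 and 0.11 ± 0.21, within the error, and below 0 when arrays were scaled by their median. The genotype difference in LT-HSC minus that in MPP was 0.62 ± 0.29 for Cdc25a and 0.60 ± 0.29 for Cdk6. On the same pair of MPP arrays the 8 macrophage genes had a median difference of 1.25, with 6 of 8 higher in cKO by 2-fold or more, and their part in these differences was not tested.

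Ccnd1 was lower in cKO cells of both kinds, at -0.27 ± 0.20 for LT-HSC and -0.35 ± 0.20 for MPP. It stayed below 0 under all 5 other scalings, among them the authors' series table, which nearly repeats the main one. Ccnd2 stood at -0.31 ± 0.20 for LT-HSC and 0.06 ± 0.20 for MPP. Ccnd3 differed by 0.29 ± 0.20 and 0.23 ± 0.20 at its probes in LT-HSC, and by -0.13 ± 0.20 at both in MPP. Cdk2 stood at -0.16 ± 0.20 for LT-HSC and 0.21 ± 0.20 for MPP. The 3 Cdk4 probes lay between -0.12 and 0.14 in LT-HSC and between -0.28 and -0.21 in MPP. Among all genes these differences lie between percentiles 19.0 and 75.8 of their comparison.

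Ccne1 at base 1874 differed by 0.02 ± 0.21 in LT-HSC, with the sign changing under 3 other scalings, and by -0.29 ± 0.21 in MPP. At base 741 it was, by a bound of the same kind, 3.58-fold higher on the cKO LT-HSC array than in WT LT-HSC, where it was not well above background. In MPP it was lower in cKO at this probe by -1.14 ± 0.22 (2.20-fold lower, percentile 1.13). With normexp correction these differences were 0.48 in LT-HSC and -0.74 in MPP, both under 2-fold. The signals at this probe were at most 131, and the pair of Ccne1 probes disagreed in size in every comparison and in direction between populations in cKO cells.

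**Figure D3:**
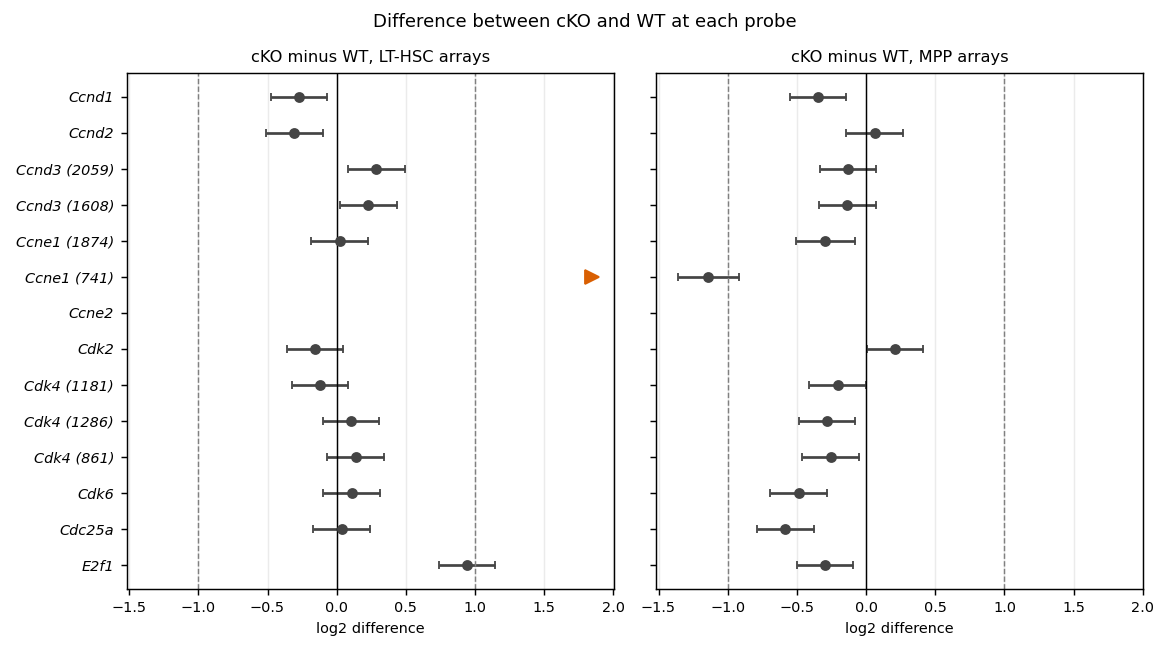
Points are log2 differences of cKO minus WT for each member probe, in LT-HSC (left) and MPP (right), with the scanner software's error as bars and dashed lines at 2-fold. The triangle is the bound for Ccne1 at base 741, and Ccne2 has no point. E2f1 stands at 0.94 in LT-HSC, against -0.30 in MPP. The other measured probes, apart from Ccne1 at base 741, lie between -0.58 and 0.29.

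Differences shared by both genotypes, or by both populations, can be tested in an additive fit, which treats any unequal response as error and has 1 residual degree of freedom. Limma was run over 38618 probes with that flag on at least 2 arrays, with 13 member probes among them. It called 0 probes for the shared LT-HSC minus MPP difference (0% of probes) and 0 for the shared cKO minus WT difference (0%) after Benjamini-Hochberg adjustment. At an unadjusted p under 0.05 there were 5586 and 1516 probes, with 5 member probes (Cdk2, Cdk6 and 3 of Cdk4) for the population and 0 for the genotype. The fitted LT-HSC minus MPP difference was -1.24 for Cdk2 (limma adjusted p = 0.310), -1.25 for Cdk4 at its brightest probe (limma adjusted p = 0.306) and -1.22 for Cdk6 (limma adjusted p = 0.319), each lower in LT-HSC in both genotypes. The lowest adjusted p of a member probe was 0.299 for the population, between 0.109 and 0.319 over 7 other settings, and 0.979 for the genotype. Other settings called 49 probes (limited to probes flagged so on all 4 arrays) and 185 probes (with an intensity trend), with 0 member probes in either.

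**Figure D4:**
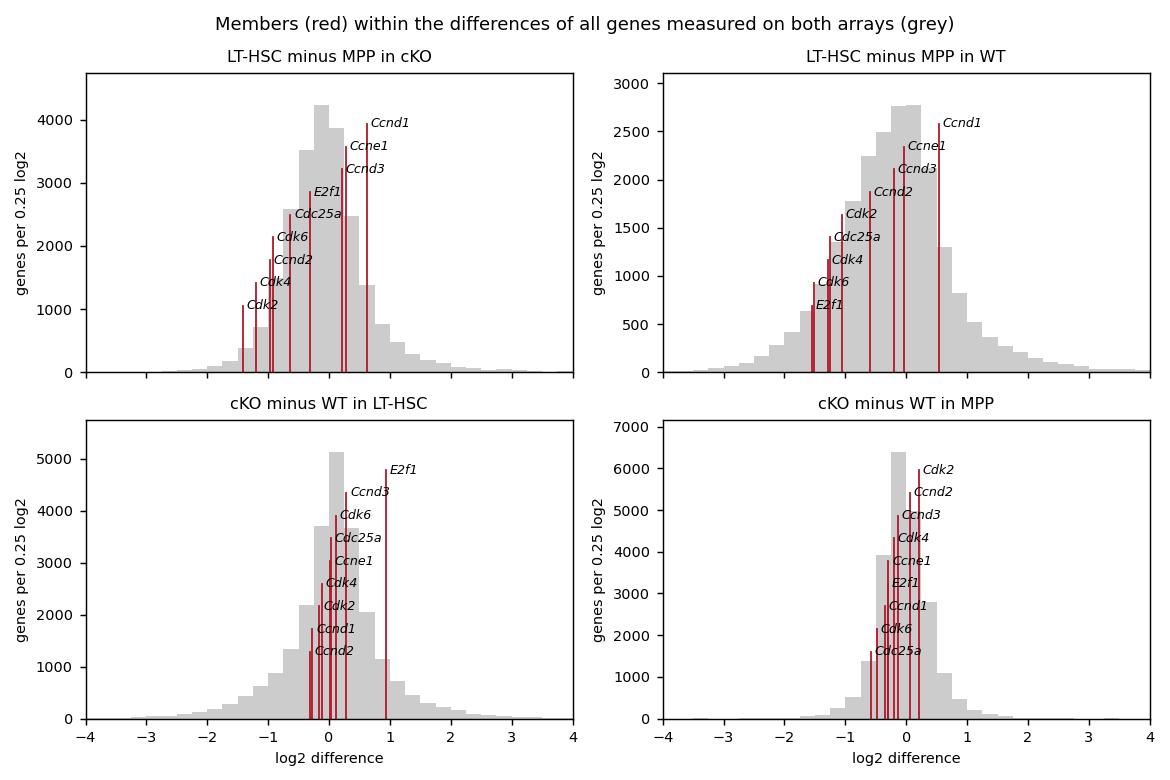
Grey bars count all genes measured on both arrays of a comparison by their log2 difference in steps of 0.25, and red lines mark the 9 members. Line height only spreads the labels. In the LT-HSC minus MPP panels the kinases lie in the lower part of the distribution and Ccnd1 in the upper part, and in the cKO minus WT panels E2f1 in LT-HSC lies away from the middle.

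The other genes of the pathway were taken as 3 lists, and their counts are read against the shares of all genes past 2-fold. For LT-HSC minus MPP these were 6.67% higher and 6.44% lower in cKO, and 9.15% higher and 18.1% lower in WT cells. For cKO minus WT they were 8.97% higher and 7.92% lower in LT-HSC, and 1.76% higher and 1.89% lower in MPP. Of 28 other G1/S regulators, 25 were measured in cKO cells and 24 in WT cells. In the comparison of LT-HSC with MPP, 1 was higher and 3 lower by 2-fold in cKO (6.44% of all genes lower), and 0 higher and 8 lower in WT cells (18.1% of all genes lower). Their medians were -0.10 and -0.21, beside -0.09 and -0.20 for all genes. In cKO cells the largest differences were those of Myc (-1.65), a transcription factor of cell growth, Skp2 (-1.41), a subunit of the ubiquitin ligase that removes the inhibitor p27, and Cdkn1b (1.08), which encodes p27 and had 0.69 at its other probe. In WT cells they were those of the E2F family member E2f3 (-2.50), Skp2 (-2.25) and the Cdk-binding protein Cks1b (-2.18). The other E2f3 probe stood at -0.32, and the other Cks1b probe at -2.30.

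In the comparison of cKO with WT LT-HSC, 4 of the 25 measured regulators were higher by 2-fold and 0 lower (8.97% and 7.92% of all genes), with a median of 0.18 beside 0.10 for all genes. E2f3 stood at 2.37, but its other probe at -0.66. Cks1b stood at 1.41 and 1.37 at its 2 probes, and the E2F partner Tfdp2 at 1.26 with -0.15 at its other probe. In MPP 1 of 24 was higher and 0 lower (1.76% and 1.89% of all genes), with a median of -0.20 beside -0.06 for all genes. E2f2 stood at 1.01, the Cdk-activating kinase Cdk7 at -0.66 (other probe -0.35) and the repressor E2f6 at -0.52.

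All 16 E2F target and replication genes were measured on every array. Their LT-HSC minus MPP median was -0.57 in cKO cells, with 1 higher and 2 lower by 2-fold (6.67% and 6.44% of all genes), and -1.17 in WT cells, with 0 higher and 10 lower (9.15% and 18.1% of all genes). In cKO cells the ribonucleotide reductase subunit Rrm2 stood at -1.06 and the replication factor Cdc45 at -1.03. In WT cells thymidylate synthase (Tyms) stood at -2.25 and cyclin A2 (Ccna2) at -2.25. Between genotypes the median was 0.38 in LT-HSC, with 3 higher and 0 lower by 2-fold (8.97% and 7.92% of all genes), among them Tyms (2.53) and Ccna2 (1.14). In MPP it was -0.21, with 0 higher and 0 lower, with Cdc45 at -0.57 and the helicase subunit Mcm3 at -0.36 (other probe -0.27). Like E2f1, Tyms and Ccna2 had their lowest signal on the WT LT-HSC array, at 23.3 and 371. Most of the list did so too, but Mcm2, Mcm3, Mcm5, Cdc45 and Tk1 had theirs on the cKO LT-HSC array. The lowest signal well above background on the WT LT-HSC array was 11.7.

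Of the 12 G2/M genes, which act after the set's own step, 9 were lower by 2-fold in LT-HSC than in MPP in each genotype (6.44% of all genes in cKO and 18.1% in WT cells) and 0 were higher. Their medians were -1.19 in cKO and -1.69 in WT cells, where Cdc25c stood above 0 at 0.48. Cyclin B1 (Ccnb1) stood at -2.27 in cKO and -3.24 in WT cells, with its other probes between -1.94 and -0.90. Its kinase Cdk1 stood at -1.71 (other probes -0.71 and -2.04) and the mitotic kinase Aurkb at -1.53 in cKO cells. In WT cells the checkpoint kinase Bub1 stood at -3.12 and the transcription factor Foxm1 at -3.06. Between genotypes in LT-HSC 3 were higher and 1 lower by 2-fold (8.97% and 7.92% of all genes, list median 0.28), led by Foxm1 (2.88), the phosphatase Cdc25c (-2.12) and cyclin B2 (Ccnb2, 2.08). In MPP 0 were higher and 0 lower (median -0.11), and the largest differences were those of Cdc25c (-0.50), Aurkb (-0.31) and Foxm1 (0.29, other probe 0.10).

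**Figure D5:**
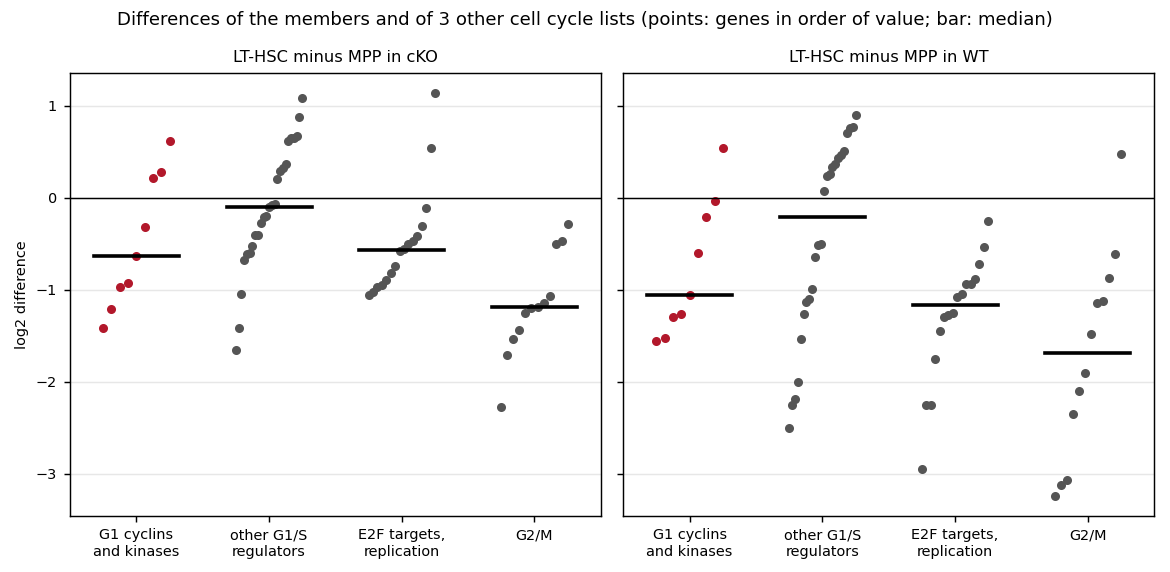
Points are genes at their brightest probe, in order of value within a column, and the thick bars are medians. The vertical axis is the log2 difference of LT-HSC minus MPP in cKO cells (left) and WT cells (right). The medians of the G1 cyclins and kinases are -0.64 and -1.05, those of the other G1/S regulators -0.10 and -0.21, those of the E2F targets -0.57 and -1.17, and those of the G2/M genes -1.19 and -1.69.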

How the data were processed

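RNA of 4 sorted cell samples was measured on 1-colour Agilent arrays of design 028005, with 1 array per group. Per the file headers, the deposited scanner files hold spot intensity on a linear scale from Feature Extraction 10.7.3.1, background-subtracted and detrended within an array, with no scaling between arrays; the submitters' processing notes give version 9.5.3. Flags, deposited as a score of 0 or 1 per spot, mark spots well above background, saturated or outlying. The authors' series table holds a ratio per probe to its own level over the arrays, per the match of its values to the scanner files; the rule behind its scaling is not known here.

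Outlier and control spots were left out, spots of a probe averaged and log2 signals set against the array's 75th percentile (Python 3.11.15, numpy 2.4.6, pandas 2.3.3). Limma 3.58.1 in R 4.3.3 (lmFit and eBayes) was fitted to genotype and population as additive terms, and the step was tested on simulated data. A probe measured on 1 array of a pair only received a bound.

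Every member probe is named, and from each list the 3 largest differences per comparison, except that 1 gene of the E2F target list is not reported here. The members and lists were chosen with earlier results of these data known. Alternatives were 5 other scalings or sources, no filter on dim probes, the mean of a gene's probes, a 1.5-fold threshold and 2 other limma settings. The number of arrays limits the precision.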

Additional observations from a re-analysis of the deposited data

Results flagged for a closer look

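E2f1 differed between genotypes in opposite directions in the 2 populations, by 0.94 in LT-HSC and -0.30 in MPP, each beyond the scanner error. The difference between these values was 1.24 and was not tested, since 4 arrays leave no residual degree of freedom. The MPP value was -0.19 with quantile normalization and -0.15 with normexp before it, both within the scanner error of 0.20.

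The coding probe of Ccne1 also went opposite ways, higher in cKO LT-HSC by a bound and lower in cKO MPP. The bound, which is not a strict limit, and the MPP difference lie 2.98 apart on the log2 scale, and this difference was not tested either.

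A probe that carries a transcript name in place of a gene symbol, but is described in the file as Cdk4, was not counted among the members. Its signals were 495 in cKO LT-HSC, 520.0 in WT LT-HSC, 856 in cKO MPP and 1061 in WT MPP. It differed between LT-HSC and MPP by -0.998 ± 0.20 in cKO and -1.29 ± 0.20 in WT cells, and it overlaps a Cdk4 probe by 53 bases, so it is no separate measurement.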

How the results depend on the processing

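No paired analysis was possible because each group has 1 array, so no group shares 2 replicate numbers with another, and no replicate could be left out. Over the 5 other scalings or sources, all 56 probe differences moved by less than the scanner error with a percentile taken from probes flagged above background throughout, with median scaling and with the authors' series table. The series table nearly repeats the main scaling, so its agreement is no separate check. Quantile normalization moved 9 of the 56 by more, and normexp with quantile normalization 20. No called difference changed sign. The largest shift of the median of all probes was -0.20 for cKO minus WT in LT-HSC, under median scaling.

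In WT cells the members' LT-HSC minus MPP median was -0.75 with quantile normalization, -0.77 with normexp and -1.26 when probes of a gene were averaged, and the genes lower by 2-fold numbered 3 with quantile normalization and 2 with normexp. In cKO cells 4 were lower with median scaling, 1 with quantile normalization, 1 with normexp and 5 at a 1.5-fold threshold, and 1 was higher at that threshold. Quantile normalization, with or without normexp, took Cdk4 below 2-fold in both genotypes at its brightest probe. At its coding probe Cdk4 stayed lower by more than 2-fold. With median scaling Ccnd2 and Cdk6 passed it in cKO cells. Between genotypes in LT-HSC, 1 gene was lower without a filter on dim probes (Ccne2, not well above background), 1 was higher when probes were averaged and 1 at 1.5-fold. Limma called 49 probes for the population when limited to probes above background on all arrays and 185 with an intensity trend. The difference of genotype differences, with alternatives chosen after seeing the data, moved by less than its error at all 12 probes.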
